A study of Oryza sativa Japonica Group with 16 samples.

Results

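The short arms of rice chromosomes 4 and 10 were described in 4 deposited comparisons of CHH methylation between mutant and wild type root initials. A member was any listed window whose midpoint lay below 7.7 Mb on chromosome 4 or below 6.2 Mb on chromosome 10, which keeps 2 Mb from each centromere. This gave 40433 window positions listed in at least 1 of the 4 tables, 20806 on chromosome 4 and 19627 on chromosome 10, of 1108506 in all. They were set against the long arms of the same chromosomes, above 11.7 Mb on chromosome 4 and above 10.2 Mb on chromosome 10, with 110288 listed positions. Coordinates are those of RGAP version 7.0.

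In plants, CHH methylation (H is A, C or T) is laid down mainly by DRM2, which argonaute proteins such as AGO4 guide to its targets with the small RNAs they bind, and by chromomethylases of the CMT2 kind in deep heterochromatin. DNA glycosylases such as DNG702 cut methylated cytosine out again. The short arms of chromosomes 4 and 10 are known from cytology as largely heterochromatic, poor in genes and rich in transposons. The tables carry no mark of heterochromatin, so the name of these arms was not checked here.

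The *ta2* group held a point mutant of *DNG702* with altered splicing, and the *OxDRM2* group held plants that overexpress *DRM2* from a ubiquitin promoter vector. Both were set against wild type, all in the japonica background Zhonghua 11. BS-seq was made from laser-dissected initials of crown roots (CR) and lateral roots (LR) at stage 1, with 2 biological replicates per mutant group, 8 libraries in all. The labels do not say which *OxDRM2* line went into the libraries. The wild type libraries are not among these samples, so genotype and the set of libraries cannot be told apart. Each mutant was compared with the wild type of the same root type, so *ta2* CR and *OxDRM2* CR share 1 control, and *ta2* LR and *OxDRM2* LR share the other.

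Each table lists windows of 1000 bp at steps of 100 bp whose CHH difference was at least 10 percentage points at a q-value under 0.01. Windows with a positive difference are called hyper here and were read as higher in the mutant, and those with a negative difference are called hypo. The difference pools the 2 replicates of a group. No methylation level, value per replicate or cytosine count stands in the tables, so the spread between replicates and the depth behind a window are unknown, and no difference between arms was tested. Up to 10 windows overlap at any base pair, so windows are not independent, and shares of windows are given without intervals.

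As a share of all window positions, hyper windows were about as dense in the short arms as in the long arms. Positions that could not be tested are not marked and stay in this count, and their number may differ between arms. In *ta2* CR, 6965 windows on the short arm of chromosome 4 were hyper, 9.05% of its 76995 window positions, against 10.2% on the long arm. For comparison, 10.4% of all positions of the table were called hyper. On chromosome 10 the *ta2* CR short arm had 6747 hyper windows, 10.9% of 61995 positions, against 11.7% on the long arm. In *ta2* LR the shares on chromosome 4 were 9.23% for the short arm and 9.10% for the long arm. On chromosome 10 they were 10.3% for the short arm and 10.96% for the long arm, with 9.73% over the whole table. *OxDRM2* CR had the densest calls, with 21.2% of the chromosome 4 short arm against 22.5% of its long arm, 25.9% of the chromosome 10 short arm against 26.1% of its long arm, and 23.7% over the whole table. The study also reports the deepest BS-seq coverage of the mutant groups for *OxDRM2* CR. For *ta2* it reports a lower share of uniquely mapped reads than for wild type at stage 1 in the same root type. The part of depth and of mapping in the number of calls was not tested. In *OxDRM2* LR the short arm of chromosome 4 had 11.2% against 12.1% on its long arm, and the short arm of chromosome 10 had 13.7% against 14.3% on its long arm, with 12.6% over the whole table. The ratio of short to long arm thus ran from 0.889 to 1.01 over the 8 pairs of arms. Base pairs covered by merged hyper windows gave nearly the same picture, with ratios from 0.891 to 1.02. Over positions listed in at least 1 of the tables, the window ratios ran from 0.935 to 1.07.

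**Figure D1:**
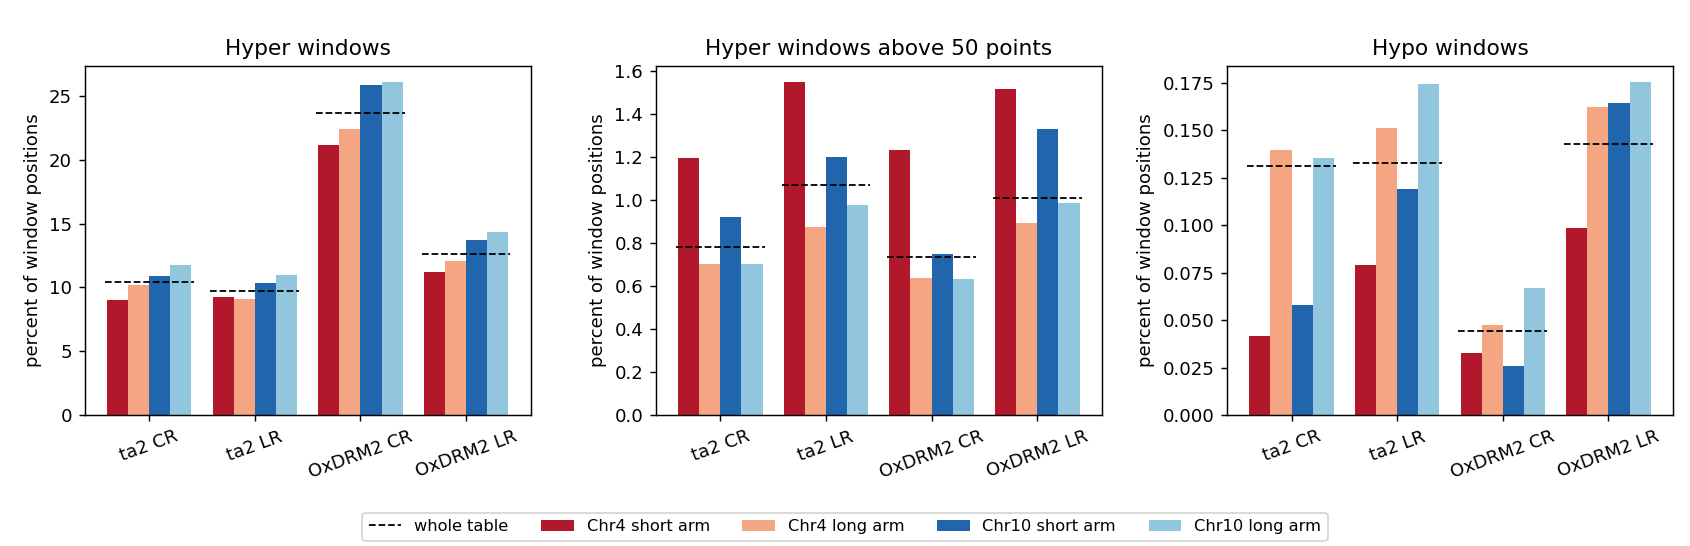
Share of window positions called in each table (y axis, percent of window positions), for all hyper windows, hyper windows above 50 points and hypo windows. Bars are the Chr4 and Chr10 short and long arms and the dashed line is the whole table. Hyper shares are close between arms (9.05% against 10.2% for Chr4 in *ta2* CR), while shares above 50 points are higher (1.19% against 0.703%) and hypo shares lower (0.0416% against 0.139%) in the short arm.

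The arms lay further apart in the size of the differences. On the short arm of chromosome 4, 918 hyper windows in *ta2* CR exceeded 50 points, 1.19% of positions and 13.2% of hyper windows, against 0.703% of positions and 6.91% of hyper windows on the long arm, with 0.782% of positions over the whole table. In *ta2* LR, 1191 windows exceeded 50 points, 16.8% of the hyper windows on the short arm against 9.62% on the long arm, where the table as a whole had 1.07% of positions above 50 points. *OxDRM2* CR had 949 such windows, 5.81% of the hyper windows on the short arm against 2.84% on the long arm, and 0.736% of positions over the whole table. *OxDRM2* LR had 1168, 13.5% on the short arm against 7.36% on the long arm, and 1.01% of positions over the whole table. Windows above 80 points differed more: 291 of the *ta2* CR hyper windows on the short arm of chromosome 4 (4.18%) lay above 80 points, against 133 (0.549%) on the long arm, which has 238016 positions against the 76995 of the short arm.

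Chromosome 10 leaned the same way with smaller steps. Above 50 points lay 8.46% of the *ta2* CR hyper windows on its short arm against 5.96% on its long arm, 11.6% against 8.92% in *ta2* LR, 2.89% against 2.42% in *OxDRM2* CR and 9.66% against 6.88% in *OxDRM2* LR. Over both chromosomes and the 4 tables, the ratio of short to long arm ran from 1.19 to 2.05. The 4 tables are not 4 separate checks of this, since they rest on 2 sets of wild type libraries.

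Medians of the short and long arms lay close together, and the excess was mainly in the upper tail. The median hyper difference on the short arm of chromosome 4 was 21.4 points in *ta2* CR against 20.2 on the long arm, 24.6 against 22.9 in *ta2* LR, and 22.2 against 20.2 in *OxDRM2* LR. In *OxDRM2* CR it was lower on the short arm, 16.8 points against 17.5, although the share above 50 points was higher there. Among the 21 arms compared below, the median of the chromosome 4 short arm was the highest in *ta2* CR, *ta2* LR and *OxDRM2* LR. In *OxDRM2* CR it was the lowest of the 21. On chromosome 10 the *ta2* medians were 19.6 points on the short arm against 19.8 on the long arm in CR, and 22.7 against 22.7 in LR, and the *OxDRM2* medians were 16.9 against 17.6 in CR and 20.9 against 20.3 in LR.

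**Figure D2:**
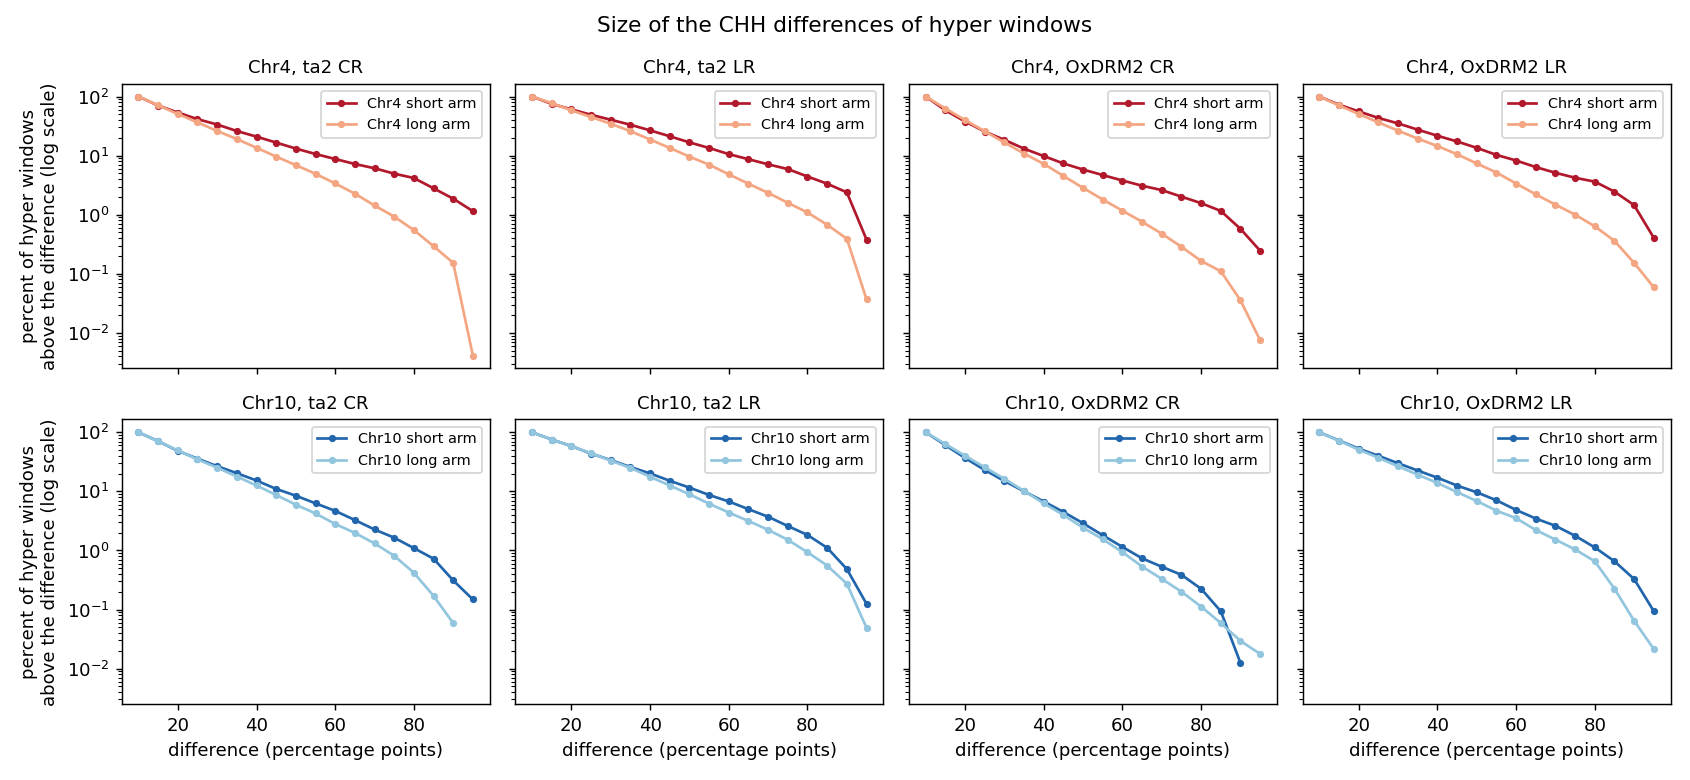
Percent of hyper windows (y axis, log scale) whose difference lies above the value on the x axis (percentage points), for the short and long arms of Chr4 (top) and Chr10 (bottom) in the 4 tables. On Chr4 the curves part with rising difference, to 4.18% for the short arm against 0.549% for the long arm above 80 points in *ta2* CR, while on Chr10 they stay closer (1.10% against 0.419%).

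The authors' q-values, which depend on depth as well as on the difference, were compared at small differences. For hyper windows of 10 to 15 points, the median −log10 q in *ta2* CR was 53.2 on the short arm of chromosome 4 against 43.2 on the long arm, and 54.9 against 50.7 on chromosome 10. The short arm was also higher in *ta2* LR by 4.95 and 7.02 and in *OxDRM2* LR by 5.27 and 3.62 on chromosomes 4 and 10. In *OxDRM2* CR it was lower, 61.9 against 63.6 and 62.2 against 64.6. A q-value can also depend on the methylation level of a window, and neither this level nor the number of sequenced cytosines is known here. The part of either in the arm differences was not tested.

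Large differences on chromosome 4 were gathered in the distal part of the short arm. Counted in bins of 500 kb, the bin from 1 to 1.5 Mb held 164 windows above 50 points in *ta2* CR, the highest of 686 bins in that table, whose median bin held 36. The same bin held 146 in *ta2* LR (rank 8 of 741 bins, median 49), 176 in *OxDRM2* CR (rank 2 of 741, median 33) and 146 in *OxDRM2* LR (rank 6 of 741, median 47). The 2 bins beyond it, up to 2.5 Mb, held 105 and 109 windows in CR and 133 and 96 in LR of *ta2*, and 146 and 116 in CR and 80 and 136 in LR of *OxDRM2*. Hyper windows as such were sparse in this stretch: the bin from 1 to 1.5 Mb had 7.02% of positions hyper in *ta2* CR and ranked 644 of 686, with a median difference of 40.8 points against 20.01 in the median bin. How many of its positions could be tested is unknown. The terminal bin, the first 500 kb, ranked high too, with 108 windows above 50 points in CR (rank 9) and 126 in LR (rank 15) of *ta2*. In *OxDRM2* it held 88 in CR (rank 21) and 135 in LR (rank 10). Below, it counts with the rest of the short arm.

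The stretch from 1 to 2.5 Mb, chosen after the bins were seen, held 378 of the 918 windows above 50 points in CR and 375 of 1191 in LR of *ta2*, and 438 of 949 in CR and 362 of 1168 in LR of *OxDRM2*. It makes up 15000 of the 76995 positions. Within it, 7.15% of positions were hyper in *ta2* CR against 9.50% in the rest of the short arm, and 35.2% of these hyper windows lay above 50 points against 9.16% in the rest. In *OxDRM2* CR the shares above 50 points were 19.8% in the stretch against 3.62% in the rest of the short arm. Without the stretch, the short to long arm ratio of the share above 50 points on chromosome 4 was 1.33 in CR and 1.40 in LR of *ta2*, against 1.91 and 1.74 with it, and 1.28 in CR and 1.47 in LR of *OxDRM2*, against 2.05 and 1.84 with it.

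**Figure D3:**
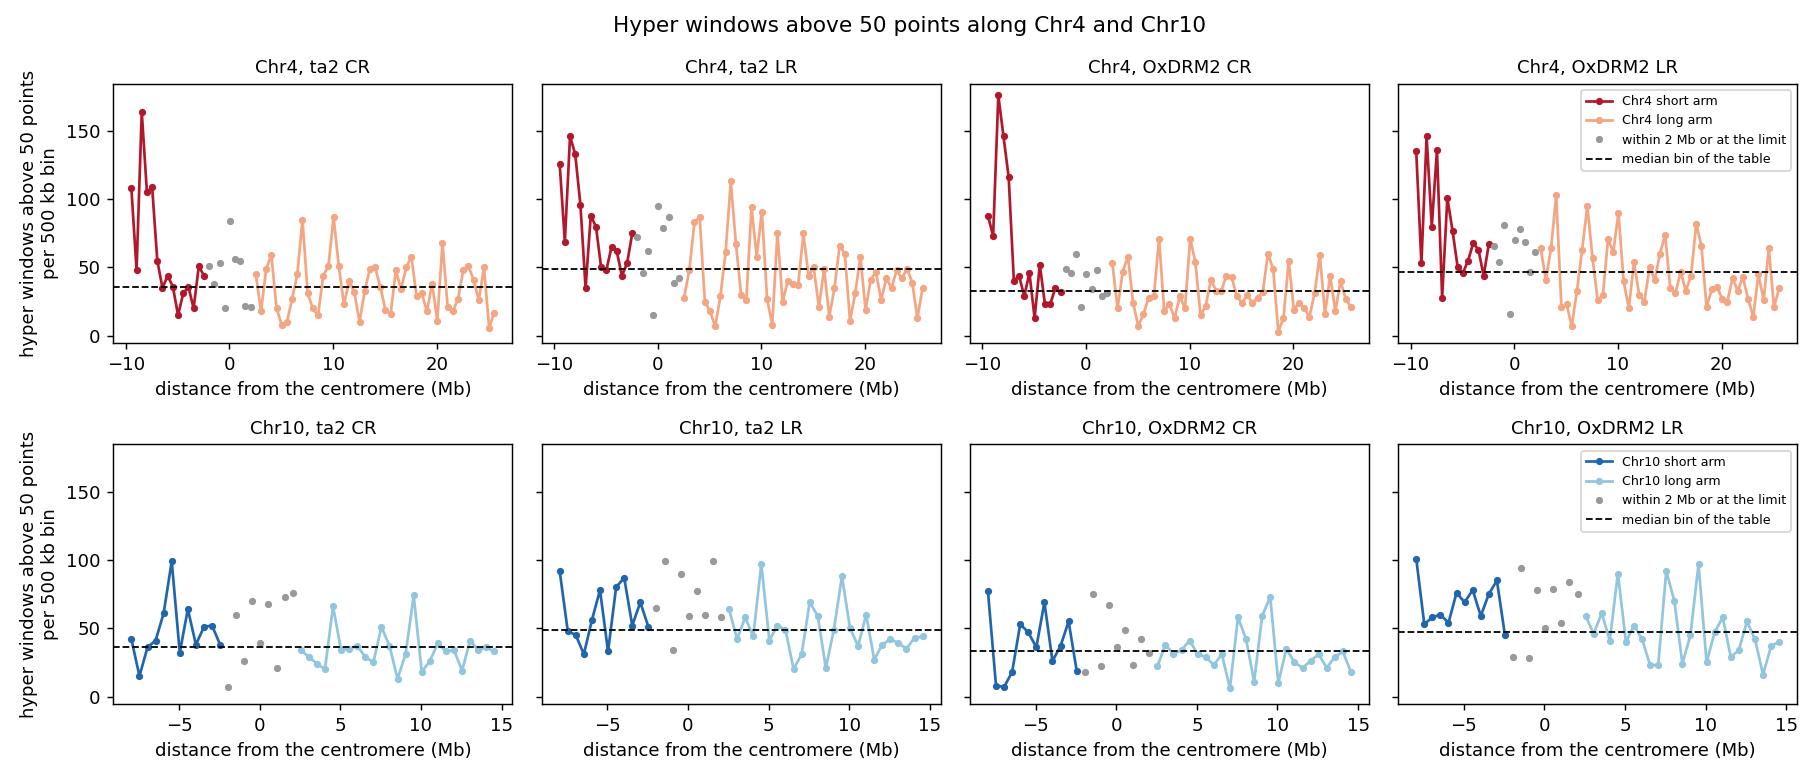
Hyper windows above 50 points per 500 kb bin (y axis) along Chr4 (top) and Chr10 (bottom) in the 4 tables, against distance from the centromere in Mb (x axis, short arm to the left). The dashed line is the median bin of the table. The distal Chr4 short arm peaks at 164 (CR) and 146 (LR) windows in *ta2* and at 176 (CR) and 146 (LR) in *OxDRM2*, and the Chr10 short arm has no peak above 101.

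The short arm of chromosome 10 was more even. Its bins held 15 to 99 windows above 50 points in CR and 31 to 92 in LR of *ta2*, and 7 to 77 in CR and 45 to 101 in LR of *OxDRM2*, and their highest median difference was 27.4 points, in *ta2* LR. At the arm limit of chromosome 4, the last 500 kb inside had more hyper positions than the first 500 kb outside in each table, with 8.32% inside against 6.72% outside in CR and 8.86% against 7.88% in LR of *ta2*. The *OxDRM2* values were 22.7% against 19.5% in CR and 10.2% against 9.56% in LR. On chromosome 10 the values were 8.44% inside against 8.60% outside in CR and 8.30% against 8.04% in LR of *ta2*. They were 22.1% against 21.7% in CR and 10.7% against 12.2% in LR of *OxDRM2*.

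Among the 21 arms that all tables cover, each held at least 2 Mb from its centromere, the short arm of chromosome 4 had the highest share of hyper windows above 50 points in each of the 4 tables. Its 13.2% in *ta2* CR stood against 5.36% to 9.20% in 19 other arms, with the short arm of chromosome 10 left out, its 16.8% in *ta2* LR against 8.06% to 13.3%, its 5.81% in *OxDRM2* CR against 2.14% to 4.45%, and its 13.5% in *OxDRM2* LR against 5.55% to 10.4%. Without the stretch from 1 to 2.5 Mb, its share was 9.16% in *ta2* CR and 3.62% in *OxDRM2* CR, inside those ranges, and 13.4% in *ta2* LR and 10.8% in *OxDRM2* LR, just above them. This comparison is uneven, since the stretch was chosen for its high counts and the other arms kept their own highest bins. In hyper density the short arm of chromosome 4 ranked low of 21, at 20 in CR and 15 in LR of *ta2*. In *OxDRM2* it ranked 20 in CR and 19 in LR. A high share at a low density was not particular to it. The long arm of chromosome 11 ranked 21 in hyper density in each table. Its share above 50 points ranked 3 in CR and LR of *ta2* and 2 in CR and LR of *OxDRM2*. The short arm of chromosome 10 ranked 6 and 5 in *ta2* CR and LR and 2 and 3 in *OxDRM2* CR and LR for hyper density, and 6 and 10 in *ta2* CR and LR and 12 and 4 in *OxDRM2* CR and LR for the share above 50 points.

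**Figure D4:**
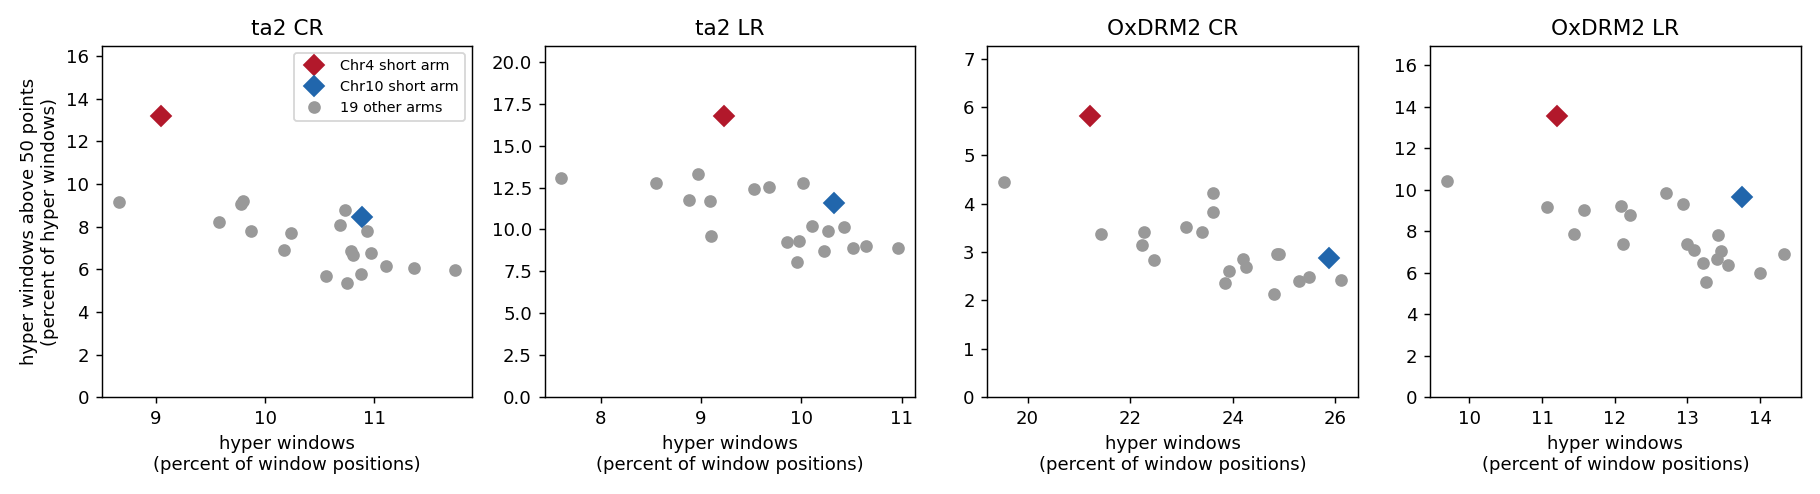
Share of hyper windows above 50 points (y axis, percent of hyper windows) against hyper density (x axis, percent of window positions) for 21 chromosome arms in each table. Diamonds mark the Chr4 and Chr10 short arms and grey points the 19 other arms. The Chr4 short arm lies at the top of each panel (13.2%, 16.8%, 5.81% and 13.5%) at a low density, and the Chr10 short arm lies among the others in share.

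The longest runs of windows above 50 points show what these differences look like on the sequence. On chromosome 4 the longest in *ta2* CR spanned 4700 bp, at chr4:2264201-2268900, with 29 windows that averaged 85.1 points and ranged from 59.0 to 96.8. All windows listed in this span averaged 80.9 points in *ta2* LR (17 windows), and for *OxDRM2* 77.0 points in CR (30 windows) and 85.3 points in LR (17 windows). The longest run of *OxDRM2* CR, chr4:2264301-2268900, lay in the same place, with 29 windows at a mean of 78.0 points. The longest run in *OxDRM2* LR was chr4:1342301-1346300, with 23 windows at a mean of 77.6 points. In *ta2* LR it was chr4:7223001-7226500, with 17 windows at a mean of 57.3 points. On chromosome 10 the longest run lay at the same place in each table, with 18 windows at a mean of 69.3 points in *ta2* CR (chr10:2166301-2169800), 26 at 71.9 points in *ta2* LR (chr10:2166301-2170000), 18 at 68.4 points in *OxDRM2* CR (chr10:2166301-2169600) and 27 at 67.7 points in *OxDRM2* LR (chr10:2166001-2170000). A run merged windows above 50 points that overlap or touch, and lower windows inside its span did not enter its mean. Here and below, windows counted in a span lay wholly inside it, and those that cross its edge were left out. All windows listed in the chromosome 10 spans averaged 58.9 points in *ta2* CR (24 windows) and 71.9 in *ta2* LR (26 windows). In *OxDRM2* they averaged 61.2 points in CR (23 windows) and 65.9 in LR (29 windows). These runs were picked for their size, and tables of 1 root type share a control.

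The longest hyper regions, in which touching windows were merged, were broader and shallower. The longest on the short arms was chr10:2002601-2017300 in *OxDRM2* CR, 14700 bp with 110 windows at a mean of 23.4 points, in a span where *ta2* CR listed 17 windows at a mean of 18.9 points, *OxDRM2* LR 25 at a mean of 25.0 points and *ta2* LR 2 at a mean of −19.5 points. On chromosome 4 it was chr4:5739801-5751400 in *OxDRM2* CR, 11600 bp with 84 windows at a mean of 15.8 points, where the other tables listed 8 to 10 windows each. In the other tables the longest hyper region reached 6200 bp on chromosome 4 and 7400 bp on chromosome 10 in *ta2* CR, 5600 and 6500 bp in *ta2* LR, and 9100 and 9200 bp in *OxDRM2* LR. Hyper regions had a median length of 1800 to 2000 bp, on short and long arms alike.

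Losses were rare on the short arms, with a density of 0.298 to 0.938 times that of the long arm over the 8 pairs of arms. In *ta2* CR, 32 windows on the short arm of chromosome 4 were hypo, 0.0416% of positions, against 332 (0.139%) on the long arm, and 36 on the short arm of chromosome 10, 0.0581%, against 176 (0.135%) on the long arm, with 0.131% over the whole table. In *ta2* LR the counts were 61 (0.0792%) on the short arm against 360 (0.151%) on the long arm of chromosome 4. They were 74 (0.119%) against 227 (0.175%) on chromosome 10, with 0.133% over the whole table. *OxDRM2* CR had 25 (0.0325%) on the short arm against 113 (0.0475%) on the long arm of chromosome 4, and 16 (0.0258%) against 87 (0.0669%) on chromosome 10, with 0.0445% over the whole table. In *OxDRM2* LR the short arm had 76 (0.0987%) against 387 (0.163%) on chromosome 4, and 102 (0.165%) against 228 (0.175%) on chromosome 10, with 0.143% over the whole table. Merged, these were few places: the hypo windows of the short arms formed from 9 to 36 regions per arm and table, so a handful of loci set each ratio.

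The longest hypo region on the short arm of chromosome 10 in *ta2* LR, chr10:2690301-2692200, had 9 windows at a mean of −33.8 points. In this span *OxDRM2* LR listed 8 windows at a mean of −25.8 points, while *ta2* CR and *OxDRM2* CR each listed 10 windows, at means of 24.1 and 19.9 points. The differences from wild type thus had opposite signs in the root types there. Both mutants share the wild type libraries of each root type, so here and in the spans below they are not separate checks. On chromosome 4 the span chr4:314801-316600, the longest hypo region of *ta2* LR, had 3 windows at a mean of −21.9 points in *ta2* LR and 8 at a mean of −25.0 points in *OxDRM2* LR, whereas *OxDRM2* CR had 7 at a mean of 11.3 points and *ta2* CR had none. The longest on the short arm of chromosome 4, chr4:6901601-6903600 in *OxDRM2* LR, had 6 windows at a mean of −18.6 points, with 2 at −22.6 points in *ta2* LR and none in either CR table. On the same arm, chr4:2404001-2405900 in *OxDRM2* CR had 8 windows at a mean of −11.6 points. In *ta2* CR, chr4:5248901-5250500 had 3 at a mean of −11.0 points. No other table listed a window wholly inside either of these spans, and windows that cross their edges were not counted. On chromosome 10, chr10:1974801-1976700 in *OxDRM2* LR had 5 windows at a mean of −18.3 points beside 2 at −12.8 points in *ta2* LR. The CR tables had 4 windows each there, at 12.8 points in *ta2* and 10.8 points in *OxDRM2*. The longest in *ta2* CR, chr10:4948601-4950300, had 5 windows at a mean of −16.4 points, with 1 at −22.1 points in *OxDRM2* CR and 1 at 19.9 points in *OxDRM2* LR. That in *OxDRM2* CR, chr10:2789101-2791000, had 2 windows at a mean of −16.6 points, and no other table listed a window wholly inside it. Windows of opposite direction between the root types of *ta2* numbered 13 on the short arm of chromosome 4, 0.0169% of positions, against 119 on the long arm (0.049997%). There were 33 on the short arm of chromosome 10, 0.0532% of positions, against 58 (0.0446%) on the long arm. In *OxDRM2* they numbered 29 (0.0377%) against 182 (0.0765%) on chromosome 4 and 59 (0.0952%) against 102 (0.0785%) on chromosome 10. The share was thus lower on the short arm of chromosome 4 and higher on that of chromosome 10.

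Within 1 mutant, CR and LR come from separate mutant and wild type libraries, so the windows they share could be counted. In *ta2*, 3869 hyper windows on the short arm of chromosome 4 were hyper in both root types, 55.5% of those in CR and 54.4% of those in LR, against 50.1% and 56.1% on the long arm. On chromosome 10, 3776 were shared, 56.0% of CR and 59.0% of LR, against 53.2% and 56.9% on the long arm. For scale, LR hyper windows took 9.23% and CR hyper windows 9.05% of all positions on the short arm of chromosome 4. In *OxDRM2*, whose CR table is far longer than its LR table, 6095 windows were shared on the short arm of chromosome 4, 37.3% of CR and 70.7% of LR, against 39.1% and 72.5% on the long arm, and 6310 on chromosome 10, 39.3% of CR and 74.0% of LR, against 39.9% and 72.7%.

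Windows above 50 points were above 50 points in the other root type too more often on the short arms in 7 of the 8 shares. In 6 of 8 they were less often hyper there at any size. Of the 918 in *ta2* CR on the short arm of chromosome 4, 529 were above 50 points in LR too (57.6%), against 48.1% on the long arm, and on chromosome 10 the shares were 59.5% against 52.7%. Of the *ta2* LR windows above 50 points, 44.4% were so in CR against 38.7% on the long arm of chromosome 4, and 45.8% against 37.7% on chromosome 10. In *OxDRM2* the shares of CR were 50.5% on the short arm of chromosome 4 against 44.4% on its long arm, and 56.2% on the short arm of chromosome 10 against 50.9% on its long arm. Of the *OxDRM2* LR windows, 41.0% against 31.8% were shared on chromosome 4, and 31.6% against 32.6% on chromosome 10, the 1 share that was lower on the short arm. Counted as hyper at any size in LR, the *ta2* CR windows above 50 points were 65.5% on the short arm of chromosome 4 against 67.7% on its long arm, and 75.3% against 72.7% on chromosome 10. Those of *OxDRM2* CR were 60.1% against 60.4% and 69.1% against 70.9%. Counted as hyper in CR, the *ta2* LR windows above 50 points were 75.1% against 77.9% on chromosome 4 and 79.5% against 77.1% on chromosome 10. Those of *OxDRM2* LR were 85.9% against 88.4% and 86.4% against 87.0%. The short arms also held more windows above 50 points per position, which moves with the share, and its part was not tested. For windows above 50 points in both root types, the CR and LR shares of an arm count the same windows. The 8 shares are thus not separate comparisons.

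**Figure D5:**
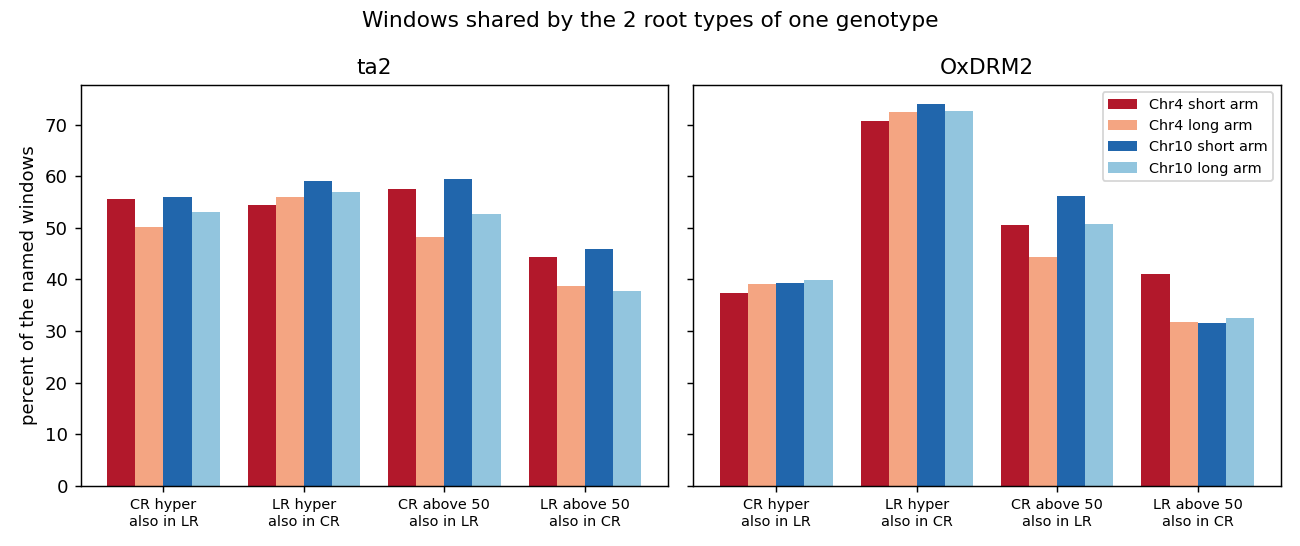
Windows found in both root types of *ta2* (left) and *OxDRM2* (right), as a percent of the windows of the root type named first (y axis), for the Chr4 and Chr10 short and long arms. All hyper windows were shared at similar rates (55.5% against 50.1% for *ta2* CR on Chr4), and those above 50 points mostly at a higher rate on the short arm (57.6% against 48.1%).

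Genes of the methylation pathway that the study lists and that lie on these arms are AGO4b (LOC_Os04g06770), an argonaute of RNA-directed DNA methylation, and OsCMT3a (LOC_Os10g01570), a chromomethylase, the enzyme family that keeps CHG methylation. A gene annotation of this build was not used here, so each was placed only between the nearest loci in the study's promoter list, whose numbers follow their positions. In the 198 kb between LOC_Os04g06520 and LOC_Os04g06850, around AGO4b, 9.33% of positions were hyper in CR and 9.13% in LR of *ta2*, and 20.9% in CR and 11.6% in LR of *OxDRM2*, close to the arm as a whole. In the 587 kb between LOC_Os10g01060 and LOC_Os10g02040, around OsCMT3a, the shares were 10.8% in CR and 10.1% in LR of *ta2*, and 26.6% in CR and 12.9% in LR of *OxDRM2*, again close to the arm. These intervals hold many genes besides the named ones.

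The part of the promoter list that was read held 38 loci on the short arms, 23 on chromosome 4 and 15 on chromosome 10, each with a bin of 200 bp. On chromosome 4, a hyper window touched 10 of the 23 bins in CR and 9 in LR of *ta2*, and 17 in CR and 11 in LR of *OxDRM2*, and on chromosome 10 it touched, of 15, 7 in CR and 4 in LR of *ta2*, and 6 in CR and 7 in LR of *OxDRM2*. Over all 200 bp bins of the chromosome 4 short arm, hyper windows touched 21.3% in CR and 22.1% in LR of *ta2*, and 43.2% in CR and 26.6% in LR of *OxDRM2*, and on chromosome 10 they touched 25.0% and 24.2% in CR and LR of *ta2* and 50.3% and 31.1% in CR and LR of *OxDRM2*. Of 132 such bins on the long arm of chromosome 4, 42.4% were touched in CR and 34.8% in LR of *ta2*. In *OxDRM2* the shares were 60.6% in CR and 46.2% in LR. The 23 short arm bins stood at 43.5%, 39.1%, 73.9% and 47.8% in the same order. Of 81 on the long arm of chromosome 10, 35.8%, 32.1%, 59.3% and 33.3% were touched, against 46.7%, 26.7%, 40.0% and 46.7% of the 15 on the short arm. The study chose these loci for a relation between promoter methylation and transcription, so the bins are not a random draw from the arm. No bin was touched by windows above 50 points in all 4 tables, and 1 was touched by a hypo window. That was the bin of LOC_Os04g06520, where *ta2* LR had 1 hypo window at −26.3 points beside 1 hyper window at 19.4 points, *OxDRM2* LR had 1 hypo window at −27.4 points beside 2 hyper windows at a mean of 10.8 points, and *ta2* CR and *OxDRM2* CR had 4 hyper windows each, at means of 21.0 and 24.2 points.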

How the data were processed

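BS-seq of *ta2* and *OxDRM2* root initials was read from 4 tables, each a comparison with wild type in 1 root type. Clean reads were mapped by the authors to RGAP version 7.0 with BS-Seeker2 (version 2.1.8), per the study's methods, and the submitters' processing notes also name methylKit. The deposited tables hold the authors' own comparison values, a p-value, a q-value and a difference in percentage points per window, printed here as the authors' values. The methods describe other windows, of a smaller width and tested by Fisher's exact test; the windows as deposited were used. The sign was read as higher in the mutant when positive, since the tables do not write it.

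Window positions run in steps of 100 bp from the start of a chromosome to its last window in any table. Windows that overlap or touch were merged. The *ta2* CR table ends on chromosome 8 at 23670800, so that chromosome's long arm and chromosome 9 were left out of the comparison of arms. Centromere positions were approximate. The genes named were the methylation genes that the study lists on these arms and loci whose promoter bin was hypo, or above 50 points in all tables. The regions named were the longest hyper region, run above 50 points and hypo region per arm and table. The members and lists were chosen with earlier results of these data known. Steps were tested on simulated data. The tools were pandas 2.3.3 and numpy 2.4.6 under Python 3.11.15, with matplotlib 3.10.9 for plots. Alternatives were other limits for the difference, q-value, arm and chromosome end, windows that do not overlap, covered base pairs, other denominators and windows within 200 bp. No sequence is shown, since no genome of this build was used.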

Additional observations from a re-analysis of the deposited data

How the results depend on the processing

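No paired analysis was possible because each table gives pooled differences alone, and no replicate could be left out. The ratio of short to long arm in hyper density stayed within 1.5 times its value in 68 of 72 alternatives. The exceptions were differences above 50 points on chromosome 4, where it was 1.70 in CR and 1.77 in LR of *ta2*, and 1.93 in CR and 1.70 in LR of *OxDRM2*. A band of 1.5 times is wide for ratios this near 1, and some inside it changed side. On chromosome 10, differences above 50 points gave 1.32 in CR and 1.22 in LR of *ta2*. In *OxDRM2* they gave 1.18 in CR and 1.35 in LR, and all main ratios of this chromosome lay below 1. The q-value limit of 1e-10 could change little, since hyper windows of 10 to 15 points had a median −log10 q of at least 43 on each arm. The main hyper share of listed windows on both short arms was 99.5% in CR and 99.0% in LR of *ta2*. In *OxDRM2* it was 99.9% in CR and 99.0% in LR. Above 30 and above 50 points it was 100% in *ta2* CR and *OxDRM2* CR. At these limits it was 99.6% and 99.8% in *ta2* LR, and 99.5% and 99.8% in *OxDRM2* LR. By covered base pairs it was 98.9% in CR and 98.0% in LR of *ta2*, and 99.7% in CR and 98.6% in LR of *OxDRM2*, and at a q-value under 1e-10 it was 99.7% in *ta2* CR. With windows that do not overlap, the median hyper difference was 20.9 points in *ta2* CR (main 20.4) and 21.1 in *OxDRM2* LR (main 21.5). Up to 3 Mb from the centromere it was 17.0 in *OxDRM2* CR (main 16.8). CR hyper windows also found in LR were 55.8% in *ta2* and 38.3% in *OxDRM2* in the main count. They were 65.9% and 49.7% when windows within 200 bp counted, and 57.7% and 48.5% above 30 points. With windows that do not overlap they were 39.0% in *OxDRM2*. Of 36 alternatives for the share above 50 points, added after seeing the data, 1 moved by over 1.5 times, the 1.28 of *OxDRM2* CR on chromosome 4 without the stretch from 1 to 2.5 Mb. The alternatives printed for the hyper share, the median and the windows shared with LR were those outside a 95% interval around the main value. That interval treats overlapping windows as independent, so it is too narrow and does not measure whether a value changed. The cause of these differences between settings was not tested. Cytosine coverage per window is unknown, so depth could not be weighed.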
